A study of Mus musculus with 8 samples.

Results

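The prostaglandin synthases and receptors described here are the 10 genes Ptgs1, Ptgs2, Ptges, Ptgds, Hpgds, Tbxas1, Hpgd, Ptger2, Ptger3 and Ptger4, measured in CD11b+ cells of mouse brain. They were chosen by name, as every probe that the array's annotation assigns to one of them, which gave 20 probes of 56599 on the array. The 10 genes stand among 36589 genes on it. Cells came from male C57BL/6N mice labelled as 7 days old, 24 h after LPS or saline (LPS is lipopolysaccharide, from the outer wall of Gram-negative bacteria). In both groups the brains of 2 mice were dissociated together in a tube, CD11b+ cells were sorted with magnetic beads, and the RNA of a tube went on 1 single-colour Agilent array, with 4 LPS tubes and 4 saline tubes. CD11b is an integrin subunit of microglia and of other myeloid cells such as monocytes and neutrophils, so the sort is not limited to microglia.

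Prostaglandins are lipid signals made from arachidonic acid in steps. Cyclooxygenases (Ptgs1, Ptgs2) turn arachidonic acid into prostaglandin H2, and terminal synthases turn that intermediate into prostaglandin E2 (Ptges), prostaglandin D2 (Ptgds, Hpgds) or thromboxane A2 (Tbxas1). The dehydrogenase Hpgd inactivates prostaglandins, and prostaglandin E2 acts on the receptors EP2 (Ptger2) and EP4 (Ptger4), which raise cyclic AMP through the stimulatory G protein, and EP3 (Ptger3), which mainly lowers it through inhibitory G proteins. In the brain, prostaglandin E2 made in inflammation is known for its part in fever and sickness behaviour, and microglia, the resident macrophages of brain tissue, carry the cyclooxygenases, several of the terminal synthases and receptors for the product.

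All 10 genes of the microglia marker list, P2ry12 and Tmem119 among them, were well above background in this fraction. Between 58.6% and 63.2% of probes were well above background on the LPS arrays, against 61.9% to 66.0% on the saline arrays. Markers of other myeloid cells differed between the groups. Of 8 monocyte markers 7 were higher after LPS, with a summed signal of 17694 to 30041 on the LPS arrays and 5296 to 7600 on the saline arrays. In such bulk samples, a change in the number of cells of a type and a change in RNA per cell cannot be told apart. Values below are log2 signals relative to each array's 75th percentile, so that 0 is the 75th percentile of an array, and changes are log2 LPS minus saline ± standard error (n = 4 arrays per group). A level can be compared between arrays for 1 probe, but not between probes. Adjusted p-values come from limma with Benjamini-Hochberg adjustment over 22509 genes, and a gene is said to have risen or fallen where that p was under 0.05.

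Of the 10 genes, 3 rose, 4 fell and 3 did not pass the test, against a background in which 49.3% of all genes tested passed it, 27.8% higher and 21.5% lower. Ptgs2, Ptger2 and Ptger4 were the genes that rose, and Ptgds, Hpgds, Hpgd and Ptger3 were those that fell. Ptgs1, Ptges and Tbxas1 were past the test in neither direction by their brightest probe. The median change over the 10 genes was -0.12, and over all genes tested it was 0.02. The 7 genes past the test kept their sign within both rows of the slide, which hold 2 LPS and 2 saline arrays each (2.44 and 2.65 for Ptger4, 0.86 and 0.85 for Ptgs2, -1.23 and -1.52 for Hpgd), and within its 4 columns, each with 1 LPS and 1 saline array. In 7 of the 10 genes the LPS and saline arrays did not overlap, which held for 44.7% of all genes tested. A fitted change of at least 2-fold went with the call in 5 of the 10 genes, Ptger4, Ptger2, Ptgds, Hpgd and Ptger3, against 9.33% of all genes tested. For Ptger3 no size can be read, as 3 of its LPS values are not well above background. It met the filter through its 4 saline arrays, so its place among the genes that fell and in the 2-fold count rests on values near the floor. The share of the 10 genes that passed thus lay above the background, but with so few genes the counts describe these genes alone. Scaling moved the balance of all calls. With the 75th percentile 6267 genes were higher and 4837 lower, while the median of an array as its scale gave 6994 and 2619, and a percentile over only those probes well above background on every array gave 4851 and 7241. The median change of all genes was 0.24 and -0.13 under these other scalings, so changes of that size, among them those of Ptgs1, Ptges and Tbxas1, have no settled direction.

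**Figure D1:**
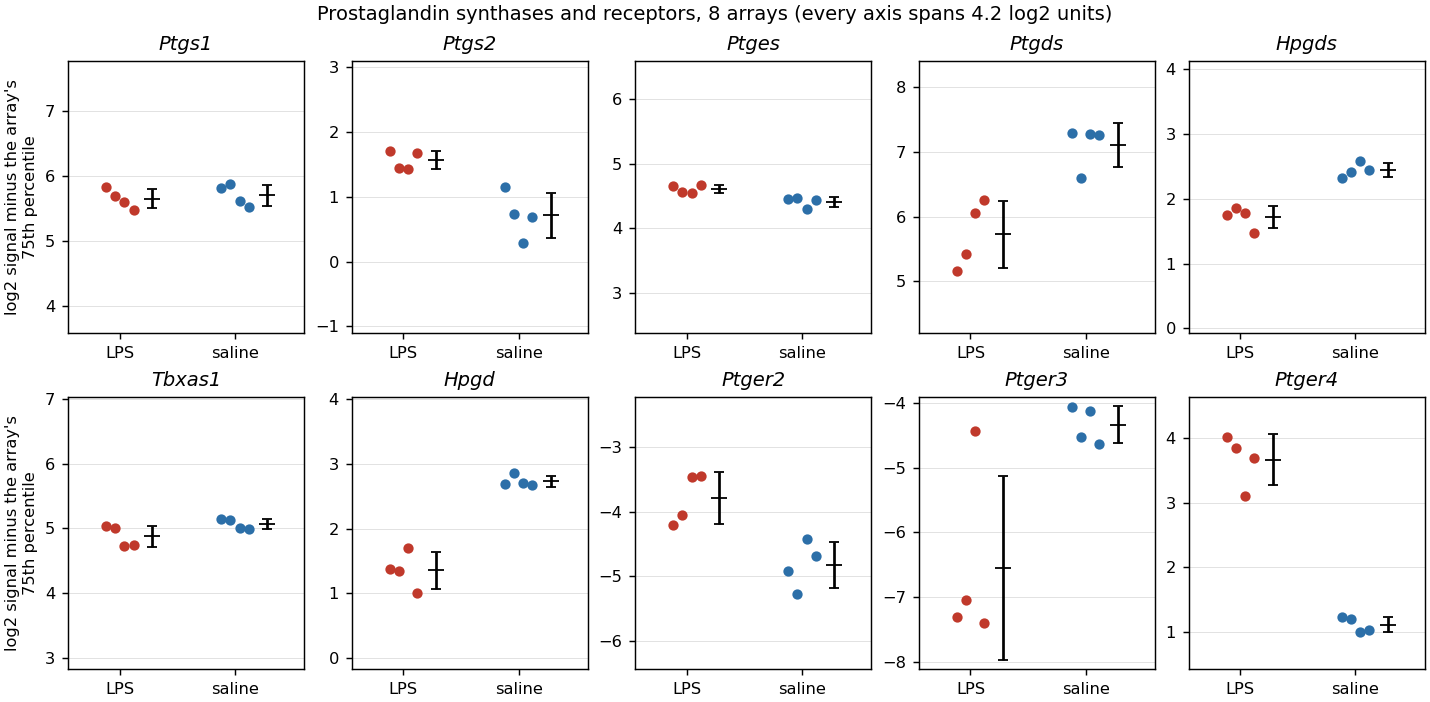
Log2 signal relative to each array's 75th percentile for the brightest probe of each gene, with 4 LPS arrays (red, left) and 4 saline arrays (blue, right) per panel and the mean ± SD beside the points. Ptger4 shows the widest separation upward (2.55) and Ptgds and Hpgd lie lower on every LPS array, while for Ptger3 LPS replicate 3 lies among the saline arrays.

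Sequences are shown where they bear on how a gene was read. The stretch below is the promoter of Ptgs2, shown because Ptgs2 is the inducible cyclooxygenase and because Cebpb, a transcription factor of the C/EBP family known to act on this promoter, was measured on the same arrays. It runs from base -150 to base 30 of the RefSeq start of transcription, at chr1:150099881-150100060 of GRCm38.p6 on the plus strand. Capitals mark, in order, a C/EBP motif (TTNNGNAA on either strand) at -69 to -62, another at -25 to -18, and at 14 to 22 the core of a cyclic AMP response element (TGACG, here on the minus strand) that overlaps an E-box (CACGTG).
Ptgs2 promoter: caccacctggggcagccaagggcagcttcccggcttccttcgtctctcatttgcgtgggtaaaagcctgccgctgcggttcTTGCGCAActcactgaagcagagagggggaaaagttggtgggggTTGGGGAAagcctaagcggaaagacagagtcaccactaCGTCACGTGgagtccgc
Of 32851 RefSeq promoters of 300 bases, 40.7% held the C/EBP motif, 20.8% the response element core and 7.2% the E-box. Among the promoters of the 10 genes, 6 held the C/EBP motif, and the response element core and the E-box each stood in 1, that of Ptgs2. These are matches of letters and were not tested for binding. Cebpb itself rose by 0.87 ± 0.11 (adjusted p = 0.000974 by limma), with 6.36 ± 0.19 on the LPS arrays and 5.49 ± 0.10 on the saline arrays (SD, n = 4 each). Cebpd, of the same family, did not pass (0.18 ± 0.08, adjusted p = 0.0964 by limma).

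The probe sequences below, from the array's annotation on build mm9, are shown because the probes of Ptges gave unlike changes, those of Ptger4 like ones, and that of Hpgds spans 2 exons. All lie on the minus strand. Positions count from the first base of the annotated transcript, and for some probes 30 of the 60 bases are given. Capitals mark ATTAAA, a variant of the polyadenylation hexamer, which 3.9% of the array's probes of 60 bases hold on the strand given.
Ptges probe at position 364, chr2:30748214-30748273: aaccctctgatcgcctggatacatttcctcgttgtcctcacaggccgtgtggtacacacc
Ptges probe at position 740, first 30 bases, chr2:30747868-30747897: gccacttacagatgagctgtcaagatttga
Ptges probe at position 3583, bases 30 to 59, chr2:30744996-30745025: aagtcagccccaATTAAAtgctttccttta
Ptger4 probe at position 2184, first 30 bases, chr15:5184449-5184478: aagcacattggctgtcattctgatgtgact
Ptger4 probe at position 3244, first 30 bases, chr15:5183452-5183481: ctgatactgatatgattttaaagcgtagct
Hpgds probe at position 444, chr6:65070081-65073609: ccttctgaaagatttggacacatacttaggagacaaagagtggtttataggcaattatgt
The 60 bases of the Hpgds probe cover a far longer genomic span, since an intron lies between its ends, so that it reads spliced transcript.

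Ptgs2, the cyclooxygenase that many cells induce in inflammation, rose 1.81-fold. Its log2 signal was 1.70, 1.45, 1.44 and 1.68 on the LPS arrays, against 1.14, 0.74, 0.28 and 0.68 on the saline arrays. Every LPS array lay above every saline array, although saline replicate 1 came near the LPS arrays. The change was 0.86 ± 0.17 (adjusted p = 0.00492 by limma, higher in 4 of 4 arrays), and it was positive between the LPS and saline array of each of the 4 slide columns (0.56 to 1.15). The array carries 1 probe for Ptgs2, at position 3839 of the RefSeq mRNA (chr1:151954744-151954803, mm9, plus strand).

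Ptgs1, the cyclooxygenase that most cells make without induction, did not pass the test by its brightest probe. That probe, at position 2718 of the RefSeq mRNA (chr2:36107644-36107703, mm9), gave 5.83, 5.69, 5.60 and 5.48 on the LPS arrays, against 5.81, 5.88, 5.62 and 5.53 on the saline arrays. The groups overlapped over nearly their whole range. The change was -0.06 ± 0.11 (95% interval -0.31 to 0.20, adjusted p = 0.687 by limma). It passed as lower under quantile normalization (-0.42, adjusted p = 0.00742) and with the mean of both probes (-0.35, adjusted p = 0.0207). A dimmer probe, at position 603 of an Ensembl transcript of Ptgs1, gave -0.29, -0.16, -0.01 and -0.38 on the LPS arrays, against 0.38, 0.70, 0.38 and 0.32 on the saline arrays. Here every LPS array lay below every saline array, and the change was -0.65 ± 0.12 (adjusted p over 35494 probes = 0.00303 by limma). Of those probes, 47.5% passed the test. The within-array difference of both Ptgs1 probes, the second minus the first, was -6.12 to -5.61 on the LPS arrays and -5.43 to -5.18 on the saline arrays. An exact two-sided permutation test over 70 arrangements of the 8 arrays gave p = 0.0286, the smallest it allows (adjusted p = 0.0571 over 4 pairs of probes, which were chosen after their values were seen).

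The changes of both cyclooxygenases were also set against each other within arrays, where the scaling of an array cancels. All 4 pairs of genes compared in this way were chosen with earlier results of these data known, which limits their p-values. The log2 difference Ptgs2 minus Ptgs1 was -4.08 ± 0.20 on the LPS arrays and -5.00 ± 0.30 on the saline arrays (SD, n = 4 each). It was higher after LPS by 0.91 (exact two-sided permutation p = 0.0286, adjusted p = 0.0381 over 4 such differences between genes). With the mean of each gene's probes it was 1.21, with an adjusted p of 0.0571 in the same exact permutation test. The arachidonic acid that both enzymes use is freed from membranes by the phospholipase Pla2g4a, which rose by 0.95 ± 0.09 (adjusted p = 0.000465 by limma).

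Ptges, the microsomal prostaglandin E synthase that is often induced together with Ptgs2, gave a change that depended on the probe. Its brightest probe, at position 3583 near the end of the annotated transcript, gave 4.65, 4.57, 4.54 and 4.67 on the LPS arrays, against 4.45, 4.47, 4.30 and 4.44 on the saline arrays. The groups did not overlap, but the distance was small, 0.19 ± 0.07, and the adjusted p by limma was 0.0531 (0.0373 without LPS replicate 3). The sign itself moved with the scaling, to -0.11 under quantile normalization.

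The probe of Ptges at position 740 gave -2.11, -1.88, -2.21 and -0.90 on the LPS arrays, against -2.77, -3.54, -2.74 and -2.85 on the saline arrays. Every LPS array lay above every saline array, with LPS replicate 4 highest and saline replicate 2 lowest. The change was 1.20 ± 0.31 (adjusted p over all probes = 0.0139 by limma), and 1.30 with an adjusted p of 0.0662 when the median signal of each array entered the fit. At position 364 the probe gave -3.92, -3.90, -3.98 and -3.20 on the LPS arrays, against -4.35, -6.26, -3.99 and -4.76 on the saline arrays, where it was well above background on 3 of 4. The groups did not overlap, by a margin smaller than the spread within either, and the change of 1.09 ± 0.46 did not pass the test (adjusted p over all probes = 0.0789 by limma). It passed under 5 alternatives and without saline replicate 3 (1.37, adjusted p = 0.0467), and without saline replicate 2 the change was 0.62.

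Within arrays the probe of Ptges at 740 minus that at 3583 was -6.77 to -5.57 on the LPS arrays and -8.01 to -7.04 on the saline arrays (exact permutation p = 0.0286, adjusted p = 0.0571 over the same 4 pairs of probes). The probe at 364 minus that at 3583 gave a difference of 0.897 between the groups (exact permutation p = 0.143). The upstream probes thus gave larger changes than the downstream one in value, but no pair of probes passed after adjustment. Taking the mean of the 3 probes, the change of Ptges was 0.83 (adjusted p = 0.0244 by limma).

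**Figure D2:**
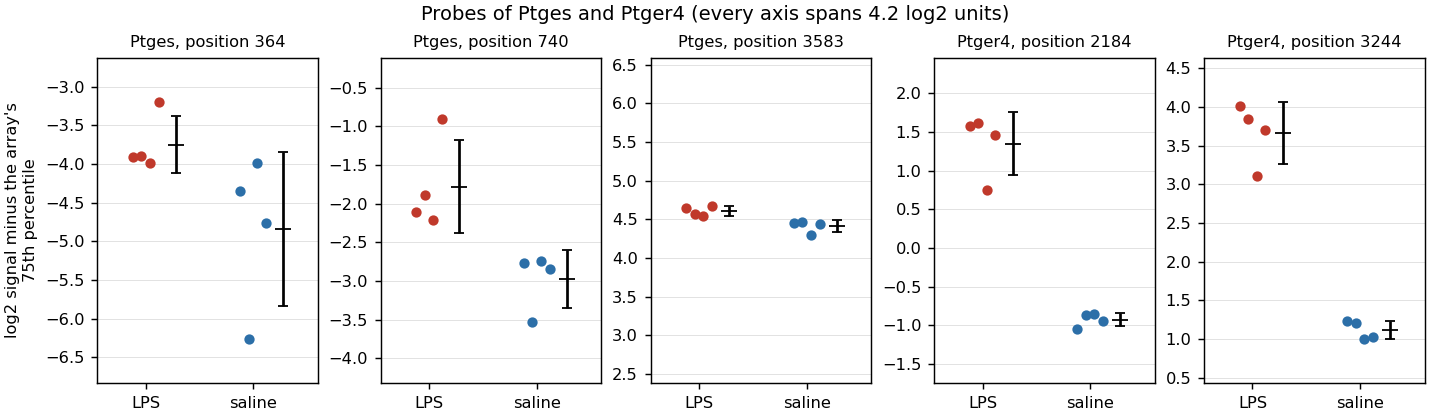
Log2 signal relative to each array's 75th percentile for 3 probes of Ptges and 2 of Ptger4, 4 LPS arrays (red, left) and 4 saline arrays (blue, right) per panel, with the mean ± SD beside the points; every axis spans the same number of log2 units. The group means differ by 1.09 and 1.20 for the Ptges probes at 364 and 740 and by 0.19 for the one at 3583, while for both Ptger4 probes they differ by over 2.

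Ptgds, the lipocalin-type prostaglandin D synthase made in the brain mainly by leptomeninges, choroid plexus and oligodendrocytes, fell to 0.385 of its saline level. The log2 signal was 5.16, 5.42, 6.05 and 6.26 on the LPS arrays, against 7.29, 6.59, 7.27 and 7.26 on the saline arrays. The groups did not overlap, with saline replicate 2 standing below the other saline arrays and near the upper LPS arrays. The probe lies at position 745 of the transcript (chr2:25322232-25322291, mm9). The change was -1.38 ± 0.27 (adjusted p = 0.00448 by limma), and -0.94 with an adjusted p of 0.0533 when the median signal of each array entered the fit.

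Markers of several cell types that lack CD11b moved beside Ptgds. Of 8 astrocyte markers 7 fell, and of 4 erythroid markers tested 3. Of 7 pericyte and smooth muscle markers 5 fell and Acta2 rose (0.49 ± 0.11). Their sums were higher after LPS, 11619 to 14046 on the LPS arrays and 9754 to 11336 on the saline arrays. The brightest probe of that list was that of Acta2, with a mean log2 signal of 6.18 on the LPS arrays and 5.69 on the saline arrays. Of 9 endothelial markers 6 fell and Ly6c1 rose (2.05 ± 0.19). The endothelial sums were also higher, 6160 to 8985 on the LPS arrays and 4146 to 5604 on the saline arrays. Ly6c1 was the brightest endothelial probe on the LPS arrays, with a mean of 4.63, against 2.58 on the saline arrays. A sum weighs the brightest probes most, so the pericyte and endothelial sums do not show the falls of the other markers. Of 7 neuron markers tested 2 fell and 1 rose. Among the cells known to make Ptgds the calls were mixed. Of 10 leptomeningeal fibroblast markers 9 fell, among them the collagen genes Col1a1 (-1.50 ± 0.23) and Col1a2 (-1.35 ± 0.20), and their summed signal was 3380 to 6900 on the LPS arrays and 8711 to 13923 on the saline arrays. Saline replicate 2, low for Ptgds, was the lowest saline array for that sum and for the choroid plexus sum, and the highest for the oligodendrocyte lineage sum. Of 12 oligodendrocyte lineage markers 8 fell, with sums of 2103 to 2347 on the LPS arrays and 2545 to 2741 on the saline arrays. None of 8 choroid plexus markers passed the test, 0 of them also at an unadjusted p under 0.05. Their changes were all negative, from -1.02 (Folr1) to -0.26 (Kl). The median was -0.73, against -0.71 for the oligodendrocyte lineage list. Their sums varied widely and overlapped, 11432 to 56889 on the LPS arrays and 22525 to 61780 on the saline arrays. The part of these cells in the change of Ptgds was not tested.

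**Figure D3:**
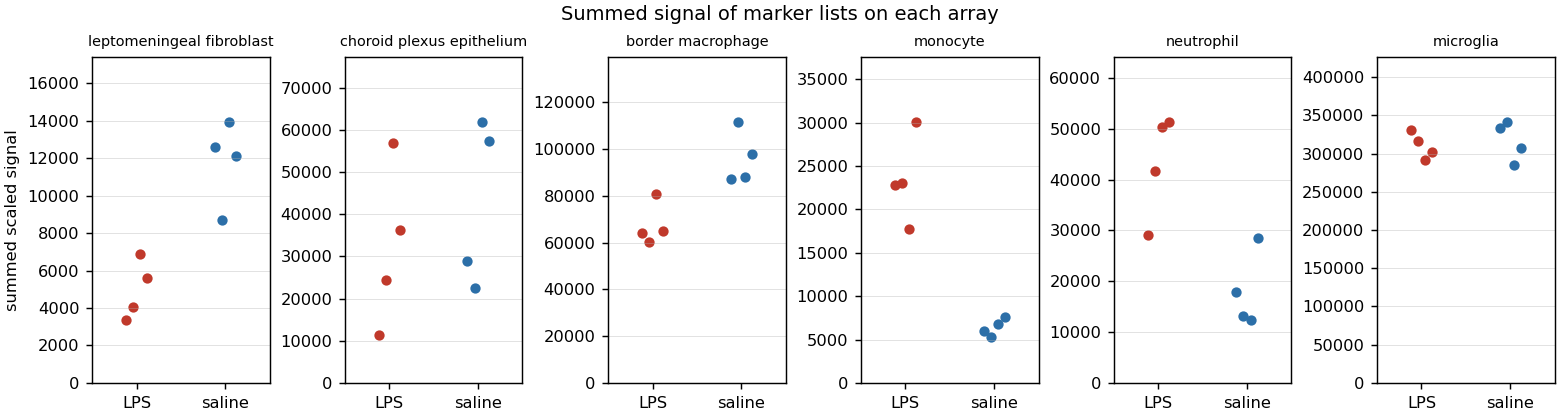
Summed signal of 6 lists of marker genes on each array, scaled by the array's 75th percentile, with 4 LPS arrays (red, left) and 4 saline arrays (blue, right) per panel and axes that start at 0. Leptomeningeal fibroblast and border macrophage sums were lower and monocyte and neutrophil sums higher on all LPS arrays than on any saline array, while choroid plexus and microglia sums overlapped. The brightest probes weigh most in a sum, those of S100a9 and S100a8 for neutrophils and of Csf1r and Cx3cr1 for microglia.

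Hpgds, the haematopoietic prostaglandin D synthase of mast cells, microglia and other macrophages, fell to 0.607 of its saline level. It gave 1.76, 1.86, 1.78 and 1.48 on the LPS arrays, against 2.32, 2.41, 2.58 and 2.44 on the saline arrays. The groups were apart by more than the spread within either. The change was -0.72 ± 0.10 (adjusted p = 0.00134 by limma) and negative in each of the 4 slide columns.

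Of 8 mast cell markers 6 could be tested, namely Mcpt4, Cma1, Tpsb2, Cpa3, Kit and Hdc. Each of them was well above background on all 8 arrays. Mcpt4 rose (0.74 ± 0.26, adjusted p = 0.0432 by limma) and the other 5 did not pass. Fcer1a and Ms4a2, subunits of the high-affinity IgE receptor, were not well above background on any array. The summed signal of the mast cell list was 723 to 1408 on the LPS arrays and 633 to 986 on the saline arrays. Among 8 markers of border macrophages, which live in the meninges and around vessels, Mrc1 (-0.78 ± 0.10), Pf4 (-0.78 ± 0.12) and Lyve1 (-0.95 ± 0.15) fell and the other 5 did not pass, with sums of 60068 to 80854 on the LPS arrays and 87369 to 111458 on the saline arrays. Of the 10 microglia markers 4 fell, P2ry12 (-1.55 ± 0.20), Fcrls (-0.58 ± 0.13), Sall1 (-0.41 ± 0.09) and Siglech (-0.22 ± 0.08). C1qa rose (0.39 ± 0.12) and the other 5 did not pass. The sum of the 10 microglia markers was 290961 to 331106 on the LPS arrays and 285511 to 340855 on the saline arrays. Csf1r and Cx3cr1, which did not pass, had the brightest probes and weigh most in it. The part of mast cells, border macrophages or microglia in the fall of Hpgds was not tested.

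Both prostaglandin D synthases thus fell. The log2 difference Ptgds minus Hpgds was 4.01 ± 0.64 on the LPS arrays and 4.66 ± 0.34 on the saline arrays (SD, n = 4 each), a difference of -0.66 that did not pass (exact permutation p = 0.171, adjusted p = 0.171). Ptges minus Hpgds was 2.89 ± 0.22 on the LPS arrays and 1.98 ± 0.18 on the saline arrays, higher after LPS by 0.91 (exact permutation p = 0.0286, adjusted p = 0.0381 over 4 differences). The brightest probe of Ptges therefore stood higher relative to Hpgds on every LPS array, most of the distance coming from the lower Hpgds signal. With the mean of the Ptges probes the difference was 1.55 (adjusted p = 0.0571, exact permutation).

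Tbxas1, thromboxane A synthase, did not pass the test. Its brightest probe, at position 1755 (chr6:39034356-39034415, mm9), gave 5.03, 5.01, 4.72 and 4.74 on the LPS arrays, against 5.14, 5.12, 5.01 and 4.98 on the saline arrays. The upper LPS arrays lay among the saline arrays. The change was -0.19 ± 0.10 (95% interval -0.42 to 0.04, adjusted p = 0.138 by limma), and it passed as lower under 5 alternatives, with -0.51 under quantile normalization. The probe at 184, which spans 2 exons, gave -0.12 ± 0.08, and the dim probe at 586, well above background on 2 of 4 LPS arrays, gave -0.57 ± 0.35, neither past the test. Platelets also make thromboxane, and of 4 platelet and megakaryocyte markers tested 3 fell, with sums of 279 to 411 on the LPS arrays and 597 to 761 on the saline arrays. Gp1ba and Gp5, platelet surface glycoproteins, were not well above background on any array.

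Hpgd, the 15-hydroxyprostaglandin dehydrogenase that starts the breakdown of prostaglandin E2, fell to 0.386 of its saline level. The log2 signal was 1.38, 1.34, 1.71 and 1.01 on the LPS arrays, against 2.69, 2.86, 2.70 and 2.68 on the saline arrays. The gap between the groups was wider than the spread within either. The probe lies at position 1274 of the transcript (chr8:58799399-58799458, mm9). The change was -1.37 ± 0.14 (adjusted p = 0.000518 by limma), negative in each of the 4 slide columns. It passed the test under all 15 other alternatives for scaling, background, filter, probe choice, model and blocks, with values of -1.53 to -1.16, and without any 1 array.

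Ptger4, the EP4 receptor, showed the highest rise among the 10 genes, 5.84-fold. The probe at position 3244 gave 4.02, 3.84, 3.10 and 3.70 on the LPS arrays, against 1.23, 1.20, 1.01 and 1.03 on the saline arrays. The lowest LPS array, replicate 3, still lay far above all saline arrays. The change was 2.55 ± 0.19 (adjusted p = 0.000161 by limma), with 2.15 to 2.76 under the same 15 alternatives. The probe at 2184 gave 1.58, 1.62, 0.74 and 1.46 on the LPS arrays, against -1.05, -0.86, -0.86 and -0.94 on the saline arrays and so again had LPS replicate 3 as the lowest LPS array. Its change was 2.28 ± 0.19 (adjusted p over all probes = 0.000254 by limma). The within-array difference between the probes did not differ between the groups past the test (-0.271, exact permutation p = 0.0857). The other probe, for an Ensembl transcript, was not well above background on any array.

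The rise of Ptger4 stood beside higher markers of monocytes and, in part, of neutrophils. The monocyte sum, given above, was lowest among the LPS arrays in replicate 3, as Ptger4 was, though Ptger4 was highest in replicate 1 and the monocyte sum in replicate 4. Of 10 neutrophil markers 3 rose, S100a8 (1.59 ± 0.29) and S100a9 (1.38 ± 0.29), calcium-binding proteins abundant in neutrophils, and the chemokine receptor Cxcr2 (1.10 ± 0.21), with sums of 29020 to 51288 on the LPS arrays and 12293 to 28536 on the saline arrays. S100a9 (mean log2 signal 7.44 on the LPS arrays, 6.06 on the saline arrays) and S100a8 (5.93 and 4.34) had the brightest probes of the list. They weigh most in its sum, which therefore does not stand for the list as a whole. The other 7 neutrophil markers did not pass. Camp (-0.89), Ltf (-0.14), Retnlg (-0.07) and Ngp (-0.03) were lower in value, and Mmp8 (0.96), Ly6g (0.55) and Mmp9 (0.12) higher. The part of monocytes or neutrophils in the change of Ptger4 was not tested.

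Ptger2, the EP2 receptor, rose 2.05-fold from a dim signal. The probe, at position 2276 (chr14:45622004-45622063, mm9), gave -4.21, -4.06, -3.46 and -3.44 on the LPS arrays, against -4.91, -5.27, -4.43 and -4.69 on the saline arrays. The groups did not overlap, but LPS replicate 1 and saline replicate 3 lay close together. It was well above background on 4 of 4 LPS arrays and 3 of 4 saline arrays, and the change was 1.03 ± 0.24 (adjusted p = 0.00831 by limma). Normexp background correction, whose offset of 50 shrinks the changes of dim probes, left 0.23 with the call kept.

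The log2 difference Ptger2 minus Ptger4 was -7.46 ± 0.75 on the LPS arrays and -5.94 ± 0.46 on the saline arrays (SD, n = 4 each). It was lower after LPS by -1.51 (exact permutation p = 0.0286, adjusted p = 0.0381 over 4 differences), so the signals of the receptors that share the stimulatory G protein rose by unequal amounts. As the Ptger2 signal was dim, the size of the difference is uncertain, and under normexp it was -2.12. With the mean of each gene's probes the difference was -1.38 (adjusted p = 0.0762, exact permutation).

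Ptger3, the EP3 receptor, fell, though its values rested on a probe at the edge of detection. The probe at position 1819 (chr3:157307508-157307567, mm9) gave -7.31, -7.04, -4.42 and -7.40 on the LPS arrays, against -4.06, -4.52, -4.13 and -4.62 on the saline arrays. It was well above background on 4 of 4 saline arrays and on LPS replicate 3 alone, and that LPS array lay among the saline arrays. The change was -2.21 ± 0.62 (adjusted p = 0.0195 by limma). The fitted size is no measured fold. With every signal floored at the lowest one well above background, the change was -0.63 (adjusted p = 0.031). Without LPS replicate 1, LPS replicate 2, saline replicate 3 or LPS replicate 4 the adjusted p was 0.0529, 0.0529, 0.0503 and 0.0537, without LPS replicate 3 the change was -2.92, normexp gave -0.05 (adjusted p = 0.453), and the fit with the median signal of each array gave -1.13 (adjusted p = 0.239). The other 3 probes of Ptger3 were not well above background on any array.

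**Figure D4:**
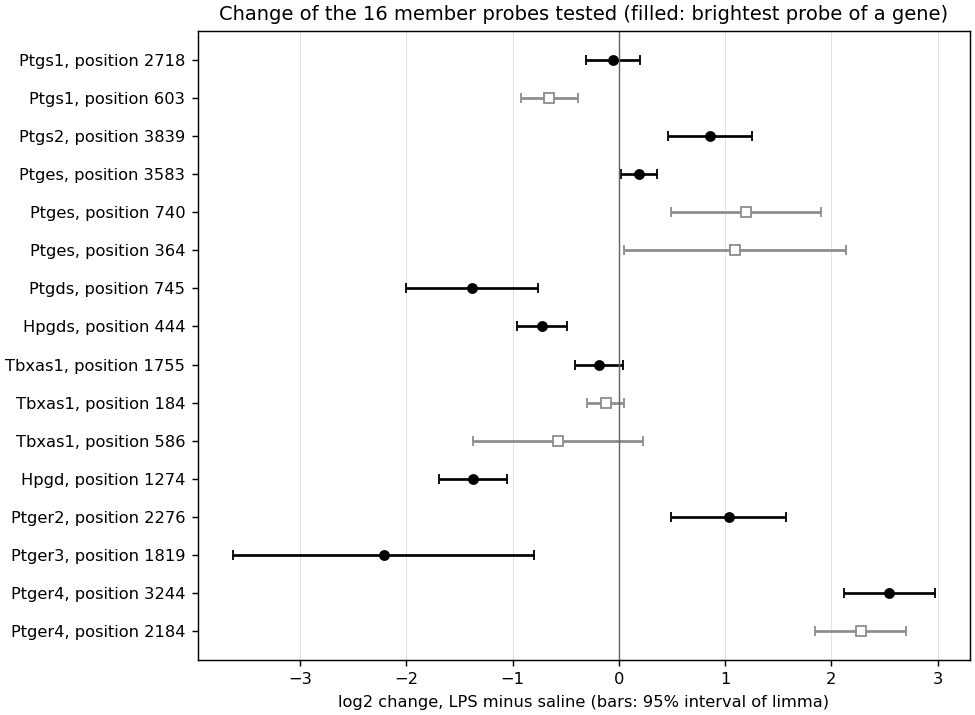
Log2 change, LPS minus saline, with its 95% interval from limma for the 16 of 20 probes of the 10 genes that passed the filter, in the order cyclooxygenases, synthases, inactivation, receptors; filled points are the brightest probe of a gene. Intervals of both Ptger4 probes lie above 1.8, those of Ptgds, Hpgds and Hpgd below 0, and the 3 Ptges probes range from 0.19 to 1.20.

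The rest of the prostanoid pathway was read from lists of genes. Of the 7 other prostanoid receptors 6 could be tested, 2 rose and 2 fell. The receptors for prostaglandin D2 went opposite ways: Ptgdr2 (DP2), which couples to inhibitory G proteins, rose by 1.20 ± 0.18 (adjusted p = 0.00151 by limma), and Ptgdr (DP1), which couples to the stimulatory one, changed by -1.27 ± 0.32 (adjusted p = 0.0123). Ptgdr2 had a log2 signal of -3.26 ± 0.23 on the LPS arrays and -4.46 ± 0.32 on the saline arrays (SD, n = 4 each), and Ptgdr -4.62 ± 0.64 on the LPS arrays and -3.35 ± 0.36 on the saline arrays. Both signals were dim, which limits the sizes of these changes. Ptgdr was well above background on 3 of 4 LPS arrays, and Ptgdr2 on 4 of 4 in each group. The prostacyclin receptor Ptgir rose by 0.51 ± 0.12, and the thromboxane receptor Tbxa2r fell, with a change of -1.02 ± 0.15. Ptger1, the EP1 receptor, had a change of -0.02 ± 0.13 and did not pass, nor did Pparg, a nuclear receptor that binds derivatives of prostaglandin D2 (0.16 ± 0.09). Ptgfr was not tested.

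Among 6 other synthases, 3 rose and 1 fell. Ptges3, the cytosolic prostaglandin E synthase that is also the Hsp90 cochaperone p23, rose by 0.89 ± 0.12 (adjusted p = 0.00103 by limma), and Ptges2, a further membrane-associated prostaglandin E synthase, by 0.45 ± 0.10 (adjusted p = 0.00633). Akr1b3, an aldose reductase that can form prostaglandin F2α, rose by 0.39 ± 0.14 (adjusted p = 0.0488). Prostacyclin synthase Ptgis had a change of -1.01 ± 0.24 (adjusted p = 0.00893) and so fell. Of 6 genes of inactivation and transport 3 rose and none fell, also at an unadjusted p under 0.05 by limma: the reductases Ptgr1 (0.56 ± 0.12) and Ptgr2 (0.34 ± 0.12), which act on the product of Hpgd, and the exporter Abcc4 (0.66 ± 0.10). Ptgr3, a further reductase of that product, did not pass (-0.10 ± 0.07). The uptake transporter Slco2a1 did not pass (-0.21 ± 0.20).

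Of 8 genes of arachidonate supply, Pla2g4a and Acsl4, an acyl-CoA synthetase that prefers arachidonate (0.66 ± 0.12), rose, and Mgll, the monoacylglycerol lipase that frees arachidonate from an endocannabinoid, fell (-1.20 ± 0.18, adjusted p = 0.00157 by limma). The other 5 did not pass. Of 9 regulators of Ptgs2 or Ptges, Cebpb and the mRNA-stabilising protein Elavl1 (0.64 ± 0.10) rose. Egr1, a transcription factor known to act on the Ptges promoter, fell (-0.56 ± 0.10), as did Nfkbiz (-0.34 ± 0.09), and the subunits Nfkb1 (0.06 ± 0.07) and Rela (-0.12 ± 0.07) were among the 5 that did not pass.

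Downstream of EP2 and EP4, 4 of 12 genes of the cyclic AMP path rose and 3 fell. The stimulatory subunit Gnas (-0.40 ± 0.09) and the cyclase Adcy9 (-0.66 ± 0.07) fell, while the kinase subunits Prkaca (0.32 ± 0.10) and Prkar1a (0.57 ± 0.12) rose. The phosphodiesterases that break down cyclic AMP went opposite ways, Pde4b by 0.62 ± 0.12 and Pde4d by -1.15 ± 0.18. Of 3 inhibitory subunits, Gnai2 rose (0.41 ± 0.12) and Gnai1 fell (-0.98 ± 0.33). Of the 7 lists, that of inactivation and transport had calls in 1 direction and the other 6 in both, and their medians lay between -0.09 and 0.25, against 0.02 for all genes tested.

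**Figure D5:**
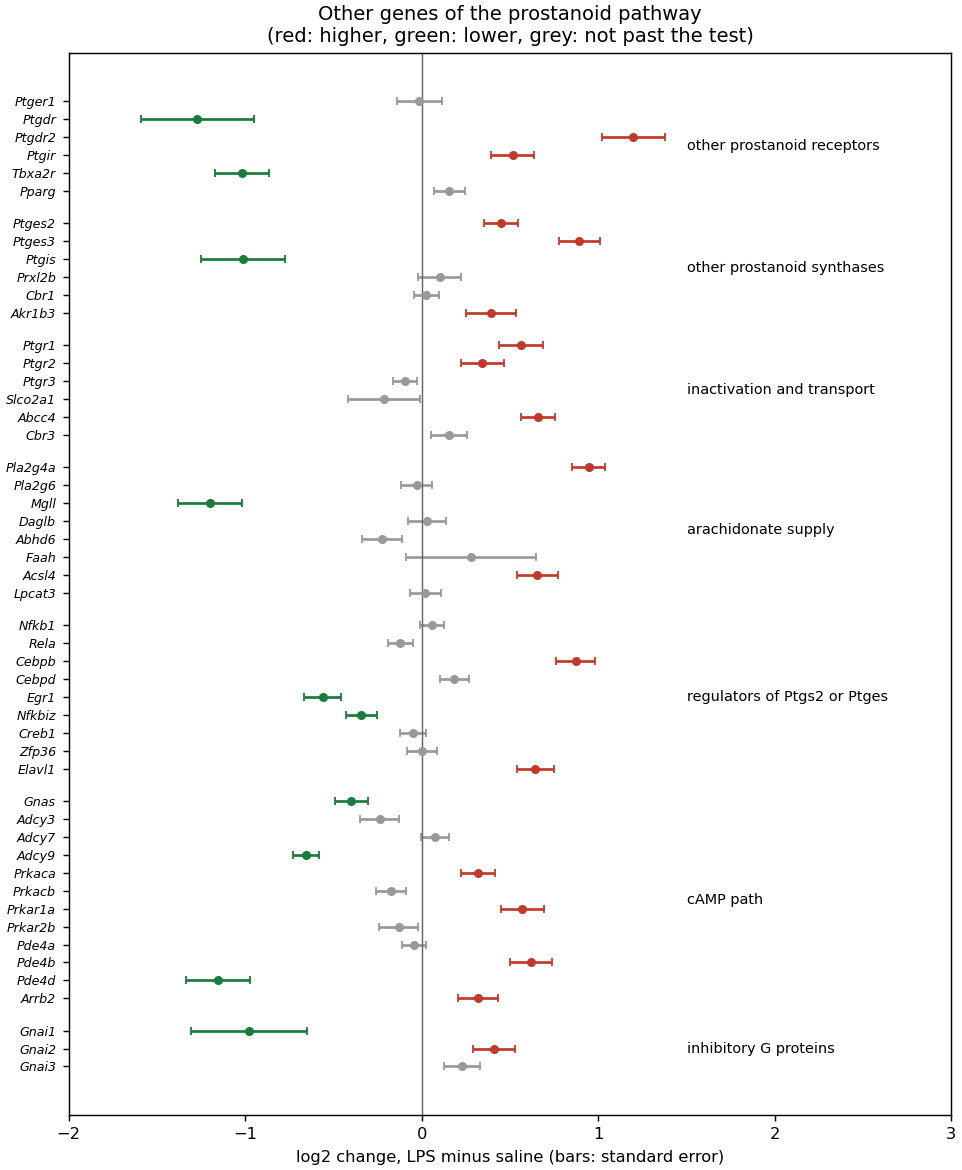
Log2 change, LPS minus saline, with its standard error for 50 other genes of the prostanoid pathway, grouped by role; red points rose, green points fell and grey points did not pass the test. Ptgdr2, Pla2g4a and Ptges3 lie highest, and Ptgdr, Mgll and Pde4d lowest.

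The genes whose values over the 8 arrays were most like those of a member were also read, among 15667 genes well above background on all arrays. For Ptgs2 they were Gm6209 (r = 0.984), Kdm4a and Stt3a (both 0.983), where 1 in 10 genes reached r = 0.926. For Ptges they were Gm45927 (0.997), Mtpap (0.993) and Txndc11 (0.987), with 0.928 reached by 1 in 10. For Hpgds they were Tmem168 (0.993), Ahdc1 and Utp18 (both 0.989), and for Ptgs1 Asb3 (0.964), Gtf3c2 and Gtf2h2 (both 0.961). For Ptgs1 1 in 10 genes reached r = 0.545, and for Hpgds 0.865. The 8 arrays fall into 2 treatment groups and share their scaling, and the values are given as a description.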

How the data were processed

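Feature Extraction 12.0.3.1 made the scanner files, per the file headers and the submitters' processing notes. The deposited intensity is its processed signal, from which the software subtracted a spatially detrended background; spots too dim for that carry a surrogate value, and arrays were not scaled to each other. A separate table of log2 values was deposited by the authors. Set against the scanner files (r = 0.9992 to 0.9996 per array), these are shifted per array, centred per probe (column medians -0.07 to 0.08) and run in the same direction; the steps behind them are not given in the sources used here.

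Spots that were controls or outliers were dropped, and none was saturated. The 75th percentile of each array was subtracted from its log2 processed signals. A probe had to be well above background on 4 or more of the 8 arrays, and the brightest such probe stood for its gene. Of the 20 member probes 16 passed, and each of the 10 genes kept at least 1. RefSeq names (GRCm38.p6) were found by accession for 35402 probes, by symbol for 9123 and by synonym for 25; 12049 kept the file's name. The test was limma 3.58.1 (lmFit, eBayes; R 4.3.3), tested on simulated data. All 10 genes had a RefSeq promoter. Members, pathway lists, marker lists and pairs of genes were chosen with earlier results of these data known. Replicate numbers only name arrays, as the labels give none. The 1 slide held both groups in each row and column. Plots were made in Python 3.11.15 with matplotlib 3.10.9.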

Additional observations from a re-analysis of the deposited data

Results flagged for a closer look

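In 7 of 32 sets of 4 arrays (a probe in 1 group), 1 array stood apart from its group by Dixon's criterion at its 95% critical value, where chance flags about 1 in 20 groups. Saline replicate 2 was the array in 4 of them, which share 1 library: it was low for Ptgds (6.59), high for Hpgd (2.86), low for the Ptges probe at position 740 (-3.53) and high for the Ptgs1 probe at position 603 (0.70). Saline replicate 3 was low for the Ptges probe at 3583 (4.30). LPS replicate 4 was high for the Ptges probe at 364 (-3.20), and LPS replicate 3 was high for Ptger3 (-4.43). Without saline replicate 2 the change of Ptgds was -1.55 (adjusted p = 0.0052 by limma), against -1.38 with all arrays.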

How the results depend on the processing

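Ptgs2, Ptger2, Ptger4, Hpgds and Hpgd kept direction and call under every alternative tried that gave a value, the fits within slide rows aside, and without any 1 array (Ptger2 and Ptger3 have no value where all 8 arrays had to be well above background). With the median signal of each array in the fit, Ptgds (-0.94, adjusted p = 0.0533), Ptger3 (-1.13) and the Ptges probe at 740 (1.30) lost their calls. Ptges passed as higher under 6 alternatives and turned to -0.11 under quantile normalization. Ptgs1 passed as lower under quantile normalization (-0.42) and with the mean of its probes (-0.35), and turned to 0.159 when scaled to each array's median, 0.0108 with array weights, 0.000489 without LPS replicate 4 (lowest -0.117 without any 1 array) and 0.0162 within slide row 2. Tbxas1 turned to 0.025 and its probe at 184 to 0.0902 when scaled to the median, and its probe at 586 to 0.0597 under normexp. With the mean of a gene's probes, Ptgs2 minus Ptgs1 was 1.21, Ptges minus Hpgds 1.55 and Ptger2 minus Ptger4 -1.38, none past the exact permutation test after adjustment. Genes changed came to 16856 with every probe by itself (more features tested), to 5632 within slide row 1 and 5 within slide row 2 (fewer arrays, chosen after seeing the data), where 1 and 0 members were higher and, in row 2, 0 lower; the cause of the gap between the rows was not tested. Without 1 array each, 8730 to 13264 genes changed, with 3 to 4 members higher and 3 to 4 lower. No paired analysis was possible because the labels give no replicate numbers; with slide column as a block, 7489 genes were higher and 6131 lower. Signal over background limits Ptger2 and Ptger3 and, outside the members, Ptgdr and Ptgdr2.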
